A study of Mus musculus with 4 samples.

Results

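The complement genes C1qa, C1qb, C1qc, C4b, C3, Cfb, Cfp, C3ar1 and C5ar1 were examined in CSF1R-EGFP+ cells of the mouse heart. They are 9 of the 31053 genes in the deposited tables and were taken by gene symbol, with no filter on measured values. The list was nevertheless chosen with earlier results of these data known. The cells came from CSF1R-EGFP mice of 12 to 16 weeks, in which the Csf1r promoter drives the EGFP reporter in monocytes, macrophages and related myeloid cells. EGFP+ cells were sorted after Ly6G+ cells had been gated out, so neutrophils should be few by design. The baseline group had no surgery and was 1 library made from 3 pooled hearts, and each of the 3 infarct libraries was made from 1 heart taken on day 7 after ligation of the left coronary artery. For the infarcted hearts, the non-infarcted remote zone was cut away before digestion, so infarct and baseline libraries also differ in the region sampled. Genotype, reporter and sort were shared by both groups.

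Complement is a cascade of plasma and tissue proteins that marks material for uptake and calls in leukocytes. In the classical pathway, C1q, a complex of A, B and C chains, binds immune complexes or dying cells, and its proteases cleave C4 and C2. In the alternative pathway, factor B (Cfb) supplies the protease of the C3 convertase, and properdin (Cfp) stabilises that enzyme. Both routes meet at C3, whose large fragment coats surfaces and whose small fragment, C3a, signals through C3ar1, while C5a signals through C5ar1. Most plasma C3 comes from the liver, whereas tissue macrophages are a well-known source of C1q.

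Cells were kept if they held over 200 genes and between 500 and 40000 UMIs, the molecule tags that are counted, so that the baseline library held 10238 of 10314 cells and the infarct libraries held 10396 of 10424, 10782 of 10804 and 10117 of 10144. Library totals ran from 71093963 UMIs at baseline to 97944428 in infarct replicate 2, with medians of 6398 to 8556 UMIs per cell. Each pair of libraries shared 26 to 34 cell barcodes. Cells were divided into classes by markers that include no complement gene, and a cell went to the class with the largest share of its markers detected. The names are those of the marker lists: resident (Lyve1, Cd163, Folr2 and others), reparative (Gpnmb, Spp1, Trem2 and others), interferon-response (Cxcl10, Ifit1 and others), proliferative (Mki67, Top2a and others), Saa3/Arg1, Ly6c2 monocyte, Ace monocyte, dendritic, granulocyte, B cell and other macrophage. Against the macrophage label of the samples, the median cell carried 6 of 7 general macrophage markers in the resident, reparative, interferon-response, proliferative and other macrophage classes, 5 in Ly6c2 monocyte and Saa3/Arg1 cells, 3 in Ace monocyte cells and 2 in dendritic cells.

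A class is a range of marker counts rather than a separate type: 4740 of 9280 reparative cells (51.1%) and 919 of 2501 resident cells (36.7%) stood at the lowest count that the class allowed, as did 668 of 943 Saa3/Arg1 cells (70.8%) and 502 of 802 dendritic cells (62.6%). Resident cells numbered 2314 at baseline and 83, 35 and 69 in infarct replicates 1, 2 and 3. Reparative cells went the other way, with 151 at baseline and 2603, 3420 and 3106 in infarct replicates 1, 2 and 3. Infarct replicate 2 stood apart in holding 59 Saa3/Arg1 cells, beside 466 and 413 in replicates 1 and 3 and 5 at baseline, too few there for a value. Ly6c2 monocyte cells numbered 869 at baseline and 1020, 592 and 420 in infarct replicates 1, 2 and 3. Of all 2901 such cells, 1044 lay in the cluster named Ace monocyte and 1638 in unnamed clusters. The class is therefore mixed, and whether its make-up differed between infarct and baseline was not tested. The other macrophage class, the largest in every library, lay mostly in a cluster led by Cd163 and Lyve1 at baseline and mostly in an unnamed cluster led by Ccl8 in infarcts, so its infarct and baseline cells need not be the same cells.

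On the GRCm38 (mm10) assembly, the 3 C1q genes lie side by side on the minus strand of chromosome 4, within 18675 bases. C1qb is at chr4:136880129-136886187, C1qc at chr4:136889804-136893065 and C1qa at chr4:136895917-136898803. C4b (chr17:34728380-34743882), Cfb (chr17:34856374-34862518) and C3 (chr17:57203970-57228136) are on chromosome 17, where Cfb stands next to C2 (chr17:34862604-34898265). C3ar1 is at chr6:122847138-122856161, C5ar1 at chr7:16246743-16259540 and Cfp at chrX:20925454-20931555, and all 9 genes are protein-coding and read from the minus strand. RefSeq promoter windows matched 6 of the 9 genes, and the bases just before the transcripts of C1qb, C1qc and C3 are shown because the C1q chains shared a pattern across classes from which C3 differed, a choice made after the values were seen. The sequences are from GRCm38.p6, on the minus strand and written 5′ to 3′, with capitals marking the motifs found: C1qb is chr4:136886201-136886450, C1qc is chr4:136893066-136893164 and C3 is chr17:57228137-57228386.
C1qb: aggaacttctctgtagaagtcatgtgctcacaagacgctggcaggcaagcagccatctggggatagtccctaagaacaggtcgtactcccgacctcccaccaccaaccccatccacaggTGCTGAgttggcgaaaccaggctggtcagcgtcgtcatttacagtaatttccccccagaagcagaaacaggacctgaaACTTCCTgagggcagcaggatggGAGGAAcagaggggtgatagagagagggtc
C1qc: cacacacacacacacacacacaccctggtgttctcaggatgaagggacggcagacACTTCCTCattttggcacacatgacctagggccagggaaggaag
C3: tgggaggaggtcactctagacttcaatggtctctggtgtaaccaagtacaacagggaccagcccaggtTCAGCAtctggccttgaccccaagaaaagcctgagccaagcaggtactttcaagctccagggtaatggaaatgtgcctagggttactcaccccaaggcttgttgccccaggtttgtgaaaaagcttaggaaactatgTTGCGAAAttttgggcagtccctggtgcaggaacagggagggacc

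Motifs of 5 kinds were searched on both strands of windows from 250 bases before to 50 bases after each RefSeq start. The motifs were the PU.1 core AGGAAGT, the ETS core GAGGAA, which can overlap it, the Maf half-site TGCTGA, the C/EBP motif TTGCNNAA and the E-box CACGTG of the TFE family. PU.1 and Maf proteins are textbook regulators of macrophage genes, and C/EBP proteins of acute-phase and myeloid genes. C1qb held a Maf half-site at -131, a PU.1 core on the reverse strand at -53 and an ETS core at -30, counted from the RefSeq start. C1qc held a reverse PU.1 core at -195 with an overlapping ETS core at -193. C3 held a reverse Maf half-site at -182 and a C/EBP motif at -45. C5ar1 held reverse PU.1 cores at -190 and -72 and a Maf half-site at -17, C3ar1 a reverse Maf half-site at -144, and Cfp reverse ETS cores at 6 and 22 bases after the start. No E-box was found in these windows. Of 32851 RefSeq promoter windows of the same length, 9.35% held the PU.1 core, 28.3% the ETS core, 19.5% the Maf half-site, 10.8% the C/EBP motif and 7.15% the E-box. A match is a string of letters and was not tested for binding.

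To ask how the sorted population as a whole differed between infarct and baseline, UMIs were summed over all kept cells and given as CPM, the count per 1e6 non-mitochondrial UMIs. The kit reads 1 tag near the 3′ end of each transcript, so CPM is not divided by gene length, and a level is compared here between cells and libraries, not between genes. C1qa was at 3719 CPM (95% interval 3705 to 3734) at baseline and at 4176, 5671 and 5059 CPM in infarct replicates 1, 2 and 3. C1qb was at 3471 CPM (95% interval 3457 to 3485) at baseline and at 4639, 6132 and 5702 CPM in infarcts, so for both chains every infarct library lay above baseline. C1qc was at 2561 CPM (95% interval 2549 to 2573) at baseline and at 2472, 3312 and 3054 CPM, with infarct replicate 1 below baseline. Intervals for the baseline library are exact Poisson intervals and cover counting error only, not differences between hearts.

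C3ar1, the receptor of C3a, had the highest ratio among members above 10 CPM, from 282 CPM (95% interval 278 to 286) at baseline to 501, 531 and 508 CPM in infarcts, a log2 ratio of means of 0.87. C5ar1, the receptor of C5a, was at 169 CPM at baseline and 226, 219 and 217 CPM in infarcts. Both receptors were above baseline in all 3 infarct libraries. C4b, the mouse C4 gene, was at 53.3 CPM (95% interval 51.6 to 55.1) and 102, 58.7 and 83.7 CPM, and C3 at 61.6 CPM (95% interval 59.7 to 63.5) and 74.1, 34.6 and 39.9 CPM, with the infarct libraries of C3 on both sides of baseline. Cfp was at 171 CPM and 195, 142 and 175 CPM, also on both sides. Cfb was rare, at 0.873 CPM (95% interval 0.664 to 1.13) or 59 UMIs at baseline and 5.54, 5.35 and 4.29 CPM in infarcts.

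No member was over 2-fold apart with all 3 infarct libraries on one side, among the 8 members that reached 10 CPM in either group, beside 2.35% higher and 7.21% lower, in all 9.56% of 8249 genes. With 1 baseline library there was no test. Under TMM scaling, which put the median of all genes at 0.09 in place of -0.21 on the log2 scale, 1 member passed that size rule. Without that scaling, the median log2 ratio of the members was 0.40, beside -0.21 for all genes. C4b has a near-identical neighbour, C4a, which was not found among the gene symbols of the deposited counts. How reads shared by both were counted could therefore not be checked.

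Where the UMIs came from differed more than the totals. At baseline, resident cells held 47.0% of all C1qa UMIs, and in infarct replicates 1, 2 and 3 they held 1.12%, 0.486% and 0.951%. Reparative cells held 1.54% of C1qa UMIs at baseline and 39.2%, 42.1% and 42.3% in infarcts, and other macrophage cells 40.4% and 41.9%, 41.4% and 40.3%. For C4b, resident cells held 72.8% at baseline and 4.98%, 2.87% and 3.74% in infarcts, while Saa3/Arg1 cells held 26.1%, 1.91% and 21.7%. For C3, Ly6c2 monocyte cells held 62.3% at baseline and 29.2%, 23.2% and 23.2% in infarcts. These shares follow the number of cells in each class as well as the level per cell.

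To compare cell classes within infarcts, the UMIs of each class and those of all remaining cells were added up in each library and tested by edgeR's quasi-likelihood test with the library as a block. Ratios are log2 values after TMM scaling, and a call is a Benjamini-Hochberg adjusted p under 0.01 over all genes tested. All 9 members passed the filter on low counts in each of the 11 classes. Dendritic and Ace monocyte cells had the lowest medians. In dendritic cells 9 of 9 members were called, 8 lower and 1 higher, beside 15.3% higher and 17% lower, in all 32.3% of all genes, and the members' median log2 ratio was -3.37 beside -0.07 for all genes. Ace monocyte cells had 7 members called, all lower (background 9.04% higher and 9.36% lower, in all 18.4%), with a median of -1.58 beside -0.14. Ly6c2 monocyte cells had 6 lower and 2 higher (background 14.9% higher and 14.7% lower, in all 29.7%), with a median of -0.80 beside -0.04. Granulocyte cells had 5 lower and 1 higher (background 5.23% higher and 7.55% lower, in all 12.8%, median -1.39 beside -0.31). Proliferative cells had 7, all lower (background 13% higher and 10.9% lower, in all 23.9%, median -0.63 beside -0.06).

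Among the macrophage classes, interferon-response cells had 6 members called, all of them higher (background 7.31% higher and 3.66% lower, in all 11%), with a median of 0.39 beside -0.02 for all genes. Reparative cells had 5 higher and 1 lower (background 10.3% higher and 12.9% lower, in all 23.2%, median 0.35 beside -0.01), and other macrophage cells 3 higher and 2 lower (background 9.77% higher and 12.8% lower, in all 22.6%, median 0.06 beside 0.01). Resident cells had 3 called, all higher (background 4.71% higher and 5.82% lower, in all 10.5%, median 0.19 beside -0.08), and Saa3/Arg1 cells 4 higher and 4 lower (background 10.2% higher and 9.12% lower, in all 19.4%, median 0.02 beside -0.07). B cells had 3 called, all lower (background 3.58% higher and 2.65% lower, in all 6.23%, median -0.30 beside -0.11). In each case the comparator was the rest of the same hearts' cells, most of which were macrophages. Without the library block, 2 of the 9 members were called in reparative, 2 in interferon-response, 3 in proliferative, 1 in resident, 4 in Saa3/Arg1 and 5 in Ly6c2 monocyte cells, and edgeR called 0 in other macrophage cells (4 at an unadjusted p under 0.05) and 0 in B cells (1 at an unadjusted p under 0.05). The background shares above are those of the fit with the block. None is given for the fit without it, so whether members lost more calls than other genes is not shown. The map of log2 ratios by class sets the members side by side.

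**Figure D1:**
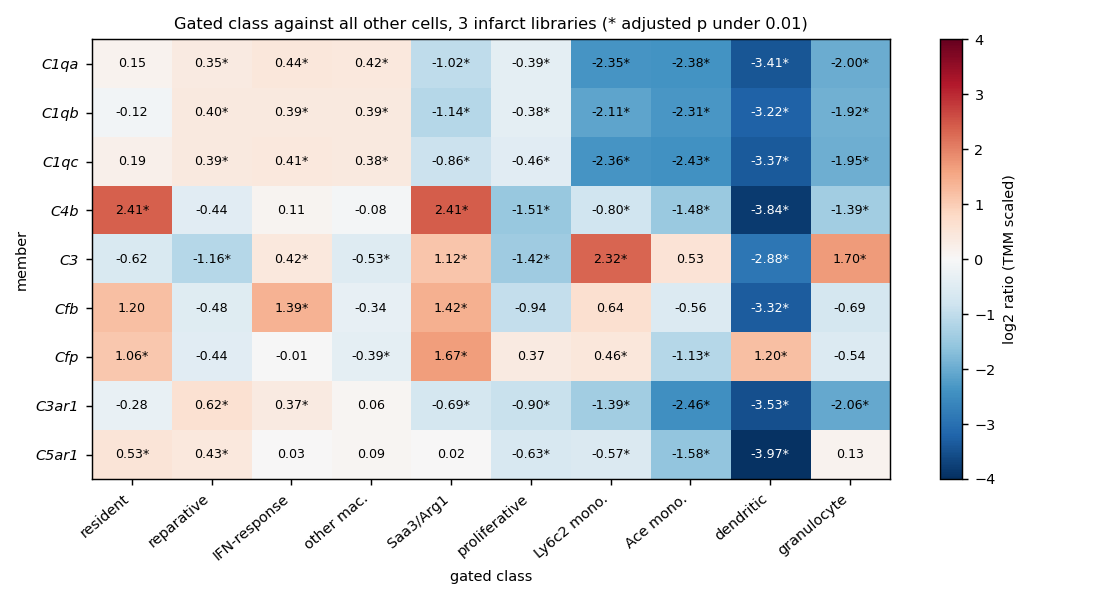
Log2 ratio of each of the 9 members (rows) in a gated class (columns) against all other cells of the same libraries, edgeR with TMM scaling, 3 infarct libraries, with an asterisk where the adjusted p is under 0.01. The C1q chains share a sign in 9 of the 10 classes drawn, dendritic cells are lowest for every member but Cfp, and C3 is highest in Ly6c2 monocyte cells while C4b is highest in resident and Saa3/Arg1 cells.

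C1q transcripts separated macrophages from monocytes and dendritic cells. In infarct replicates 1, 2 and 3, C1qa was at 4979.8, 8337 and 5359.7 CPM in resident cells, 5115, 6094 and 5478 CPM in reparative cells and 5384, 6168 and 6533 CPM in interferon-response cells. It was at 5001, 6526 and 5896 CPM in other macrophage cells and 2979, 1989 and 3129 CPM in Saa3/Arg1 cells. The first 4 of these classes overlapped in level, with means of 6225 ± 1838 CPM (SD, n = 3), 5562 ± 495 CPM (SD, n = 3), 6028 ± 587 CPM (SD, n = 3) and 5808 ± 766 CPM (SD, n = 3), whereas every Saa3/Arg1 value lay below them. Proliferative cells stood between, at 3758, 4169 and 3968 CPM. Ly6c2 monocyte cells were at 880.0, 929 and 1202 CPM, Ace monocyte cells at 899, 1312 and 807 CPM and dendritic cells at 537, 514 and 359 CPM, with no value of these 3 classes within the range of any macrophage class. C1qb and C1qc kept this order of groups, from 6464 and 3808 CPM on average in interferon-response and resident cells, the highest of the 10 classes drawn for each, to 586 and 283 CPM in dendritic cells.

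**Figure D2:**
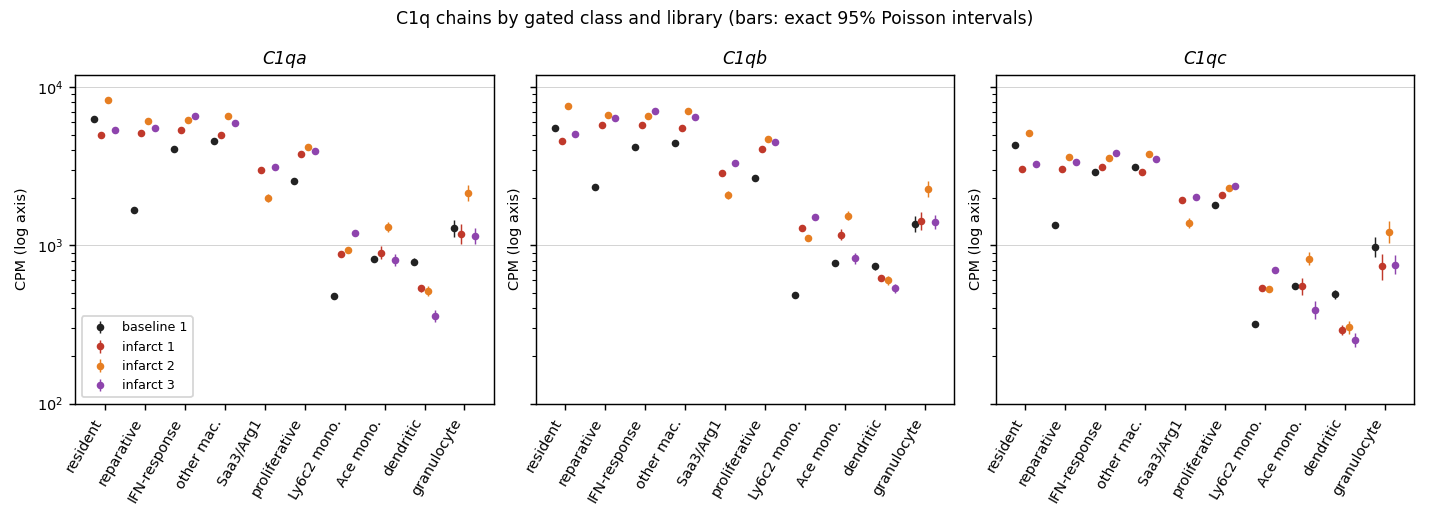
CPM (log axis) of C1qa, C1qb and C1qc in 10 gated classes, with 1 point per library and bars for exact 95% Poisson intervals that cover counting error only; Saa3/Arg1 cells have no baseline point. No monocyte or dendritic value of C1qa, which reach 1312 CPM, overlaps the macrophage and proliferative values, which start at 1681 CPM.

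Against all other infarct cells, C1qa was lower in dendritic cells, with a log2 ratio of -3.41 (SE 0.09, adjusted p = 1.24e-22), in Ace monocyte cells, with -2.38 (SE 0.09, adjusted p = 1.35e-30), and in Ly6c2 monocyte cells, with -2.35 (SE 0.09, adjusted p = 2.78e-06). These calls held in each alternative that gave a value, 13 for dendritic and Ace monocyte cells and 12 for Ly6c2 monocyte cells, and C1qb and C1qc differed by similar sizes (-3.22 and -3.37 in dendritic, -2.11 and -2.36 in Ly6c2 monocyte cells). C1qa was higher in interferon-response cells by 0.44 (SE 0.05, adjusted p = 2.76e-05) and in other macrophage cells by 0.42 (SE 0.02, adjusted p = 2.92e-05), in all 3 libraries. It was higher in reparative cells by 0.35 (SE 0.07, adjusted p = 0.00537), with C1qb at 0.40 (adjusted p = 0.00342) and C1qc at 0.39 (adjusted p = 0.00285). The reparative calls were the least secure. All 3 were lost without the block (adjusted p = 0.161, 0.102 and 0.113), without infarct replicate 3 (adjusted p = 0.0398, 0.0377 and 0.0276) and with Leiden clusters in place of gates, where C1qa stood at -0.05 (adjusted p = 0.615). The interferon-response and other macrophage calls were lost only without the block, among the alternatives run, with adjusted p = 0.0820 and 0.169 for C1qa.

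Saa3/Arg1 cells had lower C1q than the rest, with log2 ratios of -1.02 (SE 0.24, adjusted p = 0.00281) for C1qa, -1.14 (adjusted p = 9.47e-04) for C1qb and -0.86 (adjusted p = 0.00470) for C1qc. Without infarct replicate 2, whose 59 such cells had the lowest values, the C1qa ratio was -0.67 (adjusted p = 0.0362), that of C1qb -0.82 (adjusted p = 0.0124) and that of C1qc -0.54 (adjusted p = 0.0604). Proliferative cells were lower too, at -0.39 (SE 0.07, adjusted p = 0.00203) for C1qa, and leaving out infarct replicate 2 ended that call (-0.31, adjusted p = 0.0155). In resident cells, no C1q chain was called against the rest: C1qa was at 0.15 (SE 0.11, adjusted p = 0.472), C1qb at -0.12 and C1qc at 0.19 (SE 0.12, adjusted p = 0.337). Only 83, 35 and 69 resident cells stood behind these values.

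Within classes, infarct and baseline were compared by the same size rule as for all cells. In reparative cells, C1qa was at 1681 CPM (95% interval 1629 to 1735) at baseline, from 151 cells, and at 5115, 6094 and 5478 CPM in infarcts, a log2 ratio of 1.73. C1qb went from 2354 CPM to 5755, 6619 and 6398 CPM (1.41) and C1qc from 1343 CPM to 3057, 3609 and 3373 CPM (1.32). All infarct libraries lay above baseline for the 3 chains, and 4 of the 8 members with 10 CPM were apart in this class, beside 3.13% higher and 3.84% lower, in all 6.97% of all genes. Baseline cells of this class were deeper, at a median of 15254 UMIs beside 10395, 10088 and 10222 in infarcts. Whether the class held the same kind of cells in both groups was not tested. In resident cells the C1qa baseline of 6290.4 CPM (95% interval 6255 to 6326) lay within the infarct values of 4979.8, 8337 and 5359.7 CPM. In other macrophage cells the baseline of 4544 CPM (95% interval 4516 to 4572) lay below all 3 infarct values, with a log2 ratio of 0.35 that did not reach 2-fold.

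Ly6c2 monocyte cells were at 482 CPM (95% interval 466 to 497) for C1qa at baseline and at 880.0, 929 and 1202 CPM in infarcts, a log2 ratio of 1.06, and C1qb went from 489 CPM to 1283, 1119.6 and 1512 CPM (1.42). For both, every infarct library lay above baseline, and 6 of 8 members were apart, all higher, beside 2.66% higher and 4.68% lower, in all 7.34% of all genes. Without infarct replicate 3 the C1qa ratio was 0.91, under 2-fold. With the cells of highest doublet score removed, C1qa in this class was at 166 CPM at baseline and 638, 529 and 951 CPM in infarcts, and the ratio was 2.09. In dendritic cells C1qa was at 787 CPM (95% interval 747 to 829) at baseline and 537, 514 and 359 CPM in infarcts, so here every infarct library lay below baseline.

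The share of cells with a UMI was compared after each cell had been thinned to 2000 UMIs and shallower cells had been left out. For C1qa the share in reparative cells was 72.2% at baseline and 92.8%, 94.2% and 93.5% in infarcts, and in resident cells it was 99.6% and 98.8%, 100.0% and 100.0%. In Ly6c2 monocyte cells it was 23.8% and 36.4%, 30.5% and 36.6%. Free RNA in droplets gives UMIs to cells that do not express a gene, and the type set as a background, B cells, showed 43.6% at baseline and 65.9%, 71.4% and 78.4% in infarcts, above the monocyte and dendritic classes. B cells were a poor blank, with a median of 4 of 7 macrophage markers and 100, 46, 22 and 80 cells per library. Removing likely doublets took their C1qa from 1696 to 435 CPM at baseline but left 3299, 5199 and 3713 CPM in infarcts. Dendritic cells showed 29.5% at baseline and 22.3%, 20.1% and 19.4% in infarcts. Ly6c2 monocyte cells lay below them at baseline and above them in every infarct library. Monocyte and dendritic shares of C1qa were all below those of B cells and are not read as expression. With so poor a blank, they cannot be read as its absence either. The part of free RNA and of doublets in them was not tested. Thinning left out 0 of 151 reparative cells at baseline and 16, 17 and 33 in infarcts, and 6, 5, 1 and 6 B cells. Without thinning, the reparative share was 89.4% and 96.5%, 97.4% and 97.6%, at median depths of 15254, 10395, 10088 and 10222 UMIs, and the B cell share 55.0% and 76.1%, 81.8% and 85%, at 3724, 10180.0, 10816 and 9916 UMIs.

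All 3 chains are needed for C1q, and most macrophages had a UMI of each. At 2000 UMIs per cell, 98.9% of resident cells at baseline and 94.0%, 100.0% and 98.6% in infarct replicates 1, 2 and 3 had a UMI of all 3 chains. The share in reparative cells was 58.3% at baseline and 89.8%, 92.1% and 90.9% in infarcts, and in Saa3/Arg1 cells 81.0%, 82.5% and 83.8%. In Ly6c2 monocyte cells it was 10.2% and 21.4%, 14.9% and 21.6%, in Ace monocyte cells 10.0% and 11.1%, 11.4% and 8.77%, and in dendritic cells 18.2% and 9.93%, 8.44% and 9.68%. Every infarct library lay above baseline in the reparative and Ly6c2 monocyte classes and below it in the dendritic class.

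**Figure D3:**
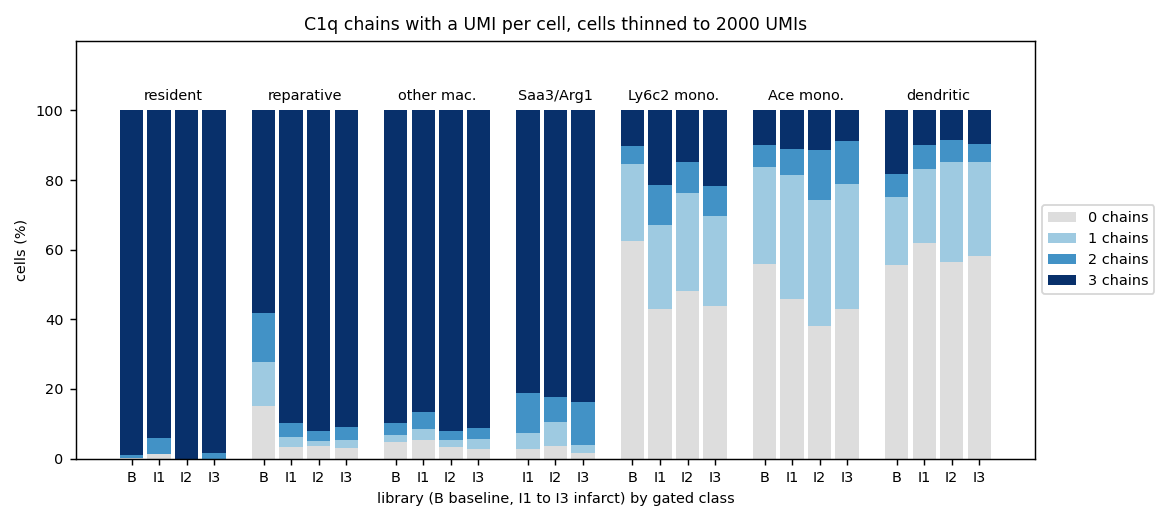
Percent of cells, thinned to 2000 UMIs, with a UMI of 0, 1, 2 or 3 C1q chains, in 7 gated classes, with 1 bar per library (B baseline, I1 to I3 infarct replicates 1 to 3). Cells with all 3 chains fill most of each resident, other macrophage and Saa3/Arg1 bar and of the infarct reparative bars, and under 25% of each monocyte and dendritic bar.

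The chains did not make up the same share of C1q UMIs in infarct and baseline libraries. Of the UMIs of the 3 chains over all cells, C1qb made up 35.6% at baseline and 41.1%, 40.6% and 41.3% in infarcts, and C1qc 26.3% and 21.9%, 21.9% and 22.1%. C1qa was nearly level, at 38.1% and 37.0%, 37.5% and 36.6%. Of 10 classes with a value in all 4 libraries, 9 had a C1qb share above baseline in every infarct library, and 10 had a C1qc share below baseline in every one. Reparative cells were the exception for C1qb, at 43.8% at baseline and 41.3%, 40.6% and 42.0% in infarcts. Within infarcts, resident cells had a lower C1qb share, 36.3%, 36.1% and 36.9%, than reparative cells in each library. Dendritic cells of the infarcts, with little C1q, had 42.9%, 42.4% and 46.6% C1qb, near the share over all cells of the same libraries in replicates 1 and 2. These are shares of tags within a library and were not tested, and the baseline is 1 library.

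C4b, whose product is cleaved by the C1 proteases and binds to surfaces, followed another pattern across classes than C1q did, although resident cells were high in both. In infarct replicates 1, 2 and 3 it was at 544, 509 and 348 CPM in resident cells and 680.5, 196 and 391 CPM in Saa3/Arg1 cells. All other classes drawn were lower, with 68.1, 57.5 and 60.4 CPM in reparative, 91.2, 64.2 and 71.6 CPM in other macrophage and 74.2, 76.6 and 79.3 CPM in interferon-response cells. Against all other cells, the log2 ratio was 2.41 (SE 0.14, adjusted p = 2.23e-61) in resident and 2.41 (SE 0.20, adjusted p = 7.25e-09) in Saa3/Arg1 cells, higher in 3 of 3 libraries and called in all 12 alternatives for each class. Between macrophage classes, reparative cells were lower than resident cells, at -2.71 (SE 0.16, adjusted p = 1.93e-10), and lower than Saa3/Arg1 cells, at -2.51 (SE 0.23, adjusted p = 1.37e-06). C4b was lower than the rest in dendritic cells (-3.84, SE 0.18, adjusted p = 8.94e-17), where 1.38 to 9.81 CPM were measured.

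C4b also differed between infarct and baseline within classes, and it was apart in more classes than any other member. Resident cells were at 139.6 CPM (95% interval 134 to 145) at baseline and 544, 509 and 348 CPM in infarcts (1.74 on the log2 scale), and 2 of 9 members were apart there, beside 3.65% higher and 7.73% lower, in all 11.4% of all genes. Reparative cells were at 7.37 CPM (95% interval 4.29 to 11.8), or 17 UMIs, at baseline and 68.1, 57.5 and 60.4 CPM in infarcts (3.07). Other macrophage cells were at 22.9 CPM (95% interval 20.9 to 25) and 91.2, 64.2 and 71.6 CPM (1.73), with 2 of 8 members apart beside 2.26% higher and 5.8% lower, in all 8.06% of all genes. Ly6c2 monocyte cells were at 9.52 CPM (95% interval 7.46 to 12.0) and 58.7, 21.2 and 70.2 CPM (2.39), and Ace monocyte cells at 12.9 CPM (95% interval 10.2 to 16.1) and 42.0, 18.9 and 31.4 CPM (1.25), the sole member apart in that class beside 1.49% higher and 3.37% lower, in all 4.86%. In these 5 classes every infarct library lay above baseline. For Ace monocyte cells the ratio was 0.96 without infarct replicate 1. Interferon-response cells did not show this, at 60.4 CPM (95% interval 46.0 to 78.0) and 74.2, 76.6 and 79.3 CPM. Over all cells the ratio was 0.61.

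C3, the component on which the pathways meet, was higher in Ly6c2 monocyte cells than in the macrophage classes. Ly6c2 monocyte cells held 338 CPM (95% interval 325 to 351) at baseline and 195, 147 and 215 CPM in infarcts, above every macrophage class in each library. In infarcts, Ace monocyte cells were at 52.5, 65.2 and 87.8 CPM, and Saa3/Arg1 cells came nearest to Ly6c2 monocyte cells among macrophages at 143, 56.0 and 118 CPM. Granulocyte cells were at 44.1 CPM (95% interval 20.2 to 83.8) and 214, 179.9 and 150.4 CPM, from 71, 53, 42 and 80 cells, and exceeded Ly6c2 monocyte cells in infarct replicates 1 and 2. Reparative cells were at 34.2, 23.5 and 19.7 CPM in infarcts. Against all other cells the log2 ratio was 2.32 (SE 0.17, adjusted p = 2.80e-05) in Ly6c2 monocyte cells, 1.70 (SE 0.21, adjusted p = 3.02e-14) in granulocyte cells and 1.12 (SE 0.16, adjusted p = 1.64e-05) in Saa3/Arg1 cells. It was -1.16 (SE 0.11, adjusted p = 2.38e-04) in reparative, -1.42 (SE 0.12, adjusted p = 4.78e-05) in proliferative and -2.88 (SE 0.18, adjusted p = 3.37e-14) in dendritic cells. Fibroblasts, few in this sort, stood above Ly6c2 monocyte cells, with 689 CPM in infarct replicate 1 and 221 CPM in replicate 3, from 45 and 20 cells.

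Ly6c2 monocyte cells of infarcts lay below baseline in C3 in all 3 libraries, by a log2 ratio of -0.87 that did not reach 2-fold, while other macrophage cells lay above it (16.3 CPM, 95% interval 14.6 to 18.0, at baseline and 58.3, 27.5 and 27.6 CPM in infarcts, ratio 1.22). Without infarct replicate 1 the latter ratio was 0.76. In reparative cells C3 was at 45.1 CPM (95% interval 36.8 to 54.6) at baseline and below it in every infarct library. Thinned to 2000 UMIs, 43.4% of Ly6c2 monocyte cells had a C3 UMI at baseline and 26.9%, 22.0% and 27.4% in infarcts, against 0% and 14.6%, 0% and 6.76% of B cells. For B cells, 0 of 94 cells at baseline and 0 of 21 in infarct replicate 2 allow a share of cells with a UMI at this depth of up to 3.19% and 14.3%, which does not bound expression.

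Of the alternative pathway, Cfb rested on few UMIs. It was at 13.0, 13.1 and 13.4 CPM in Saa3/Arg1 cells and 12.7, 12.8 and 7.30 CPM in interferon-response cells of the infarcts, beside 4.24, 3.87 and 3.54 CPM in reparative cells. The log2 ratio against all other cells was 1.42 (SE 0.27, adjusted p = 3.76e-04) and 1.39 (SE 0.16, adjusted p = 3.70e-05), higher in 3 of 3 libraries. The interferon-response call held in all 13 alternatives, while leaving out infarct replicate 3 ended the Saa3/Arg1 call (1.23, adjusted p = 0.0341). Reparative cells were lower than interferon-response cells, at -1.59 (SE 0.17, adjusted p = 7.05e-07). In resident cells Cfb was at 20.5, 9.66 and 6.52 CPM, and the ratio of 1.20 (SE 0.42, adjusted p = 0.0319) was not called. Between groups, Cfb reached 10 CPM only in the resident and interferon-response classes, with infarct over baseline ratios of 3.26 and 1.41, from baseline values of 1.28 CPM (95% interval 0.818 to 1.90) and 4.10 CPM (95% interval 1.12 to 10.5).

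Cfp, the transcript of properdin, was highest in Saa3/Arg1 cells, at 595, 448 and 589 CPM, followed by resident cells, at 512, 238 and 442 CPM, and dendritic cells, at 372, 449 and 315 CPM, and these 3 classes overlapped. Reparative and interferon-response cells were at 126, 133 and 137 CPM and 151, 163 and 143 CPM. Against all other cells the log2 ratio was 1.67 (SE 0.14, adjusted p = 7.74e-09) in Saa3/Arg1, 1.20 (SE 0.10, adjusted p = 2.73e-11) in dendritic and 1.06 (SE 0.14, adjusted p = 2.93e-12) in resident cells, each higher in 3 of 3 libraries. Dendritic cells thus had Cfp as their 1 member above the rest and the other 8 below it. The resident call turned with the way cells were grouped: the Leiden cluster of that name gave -0.48 (adjusted p = 0.00486). In dendritic cells Cfp was at 181 CPM (95% interval 162 to 202) at baseline, below every infarct value, with a ratio of 1.07, or 0.92 without infarct replicate 2. There 3 of 7 members were apart, beside 3.9% higher and 8.07% lower, in all 12% of all genes. Ly6c2 monocyte cells went from 104 CPM (95% interval 97.2 to 112) to 264, 197 and 202 CPM (1.08), or 0.94 without infarct replicate 1.

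**Figure D4:**
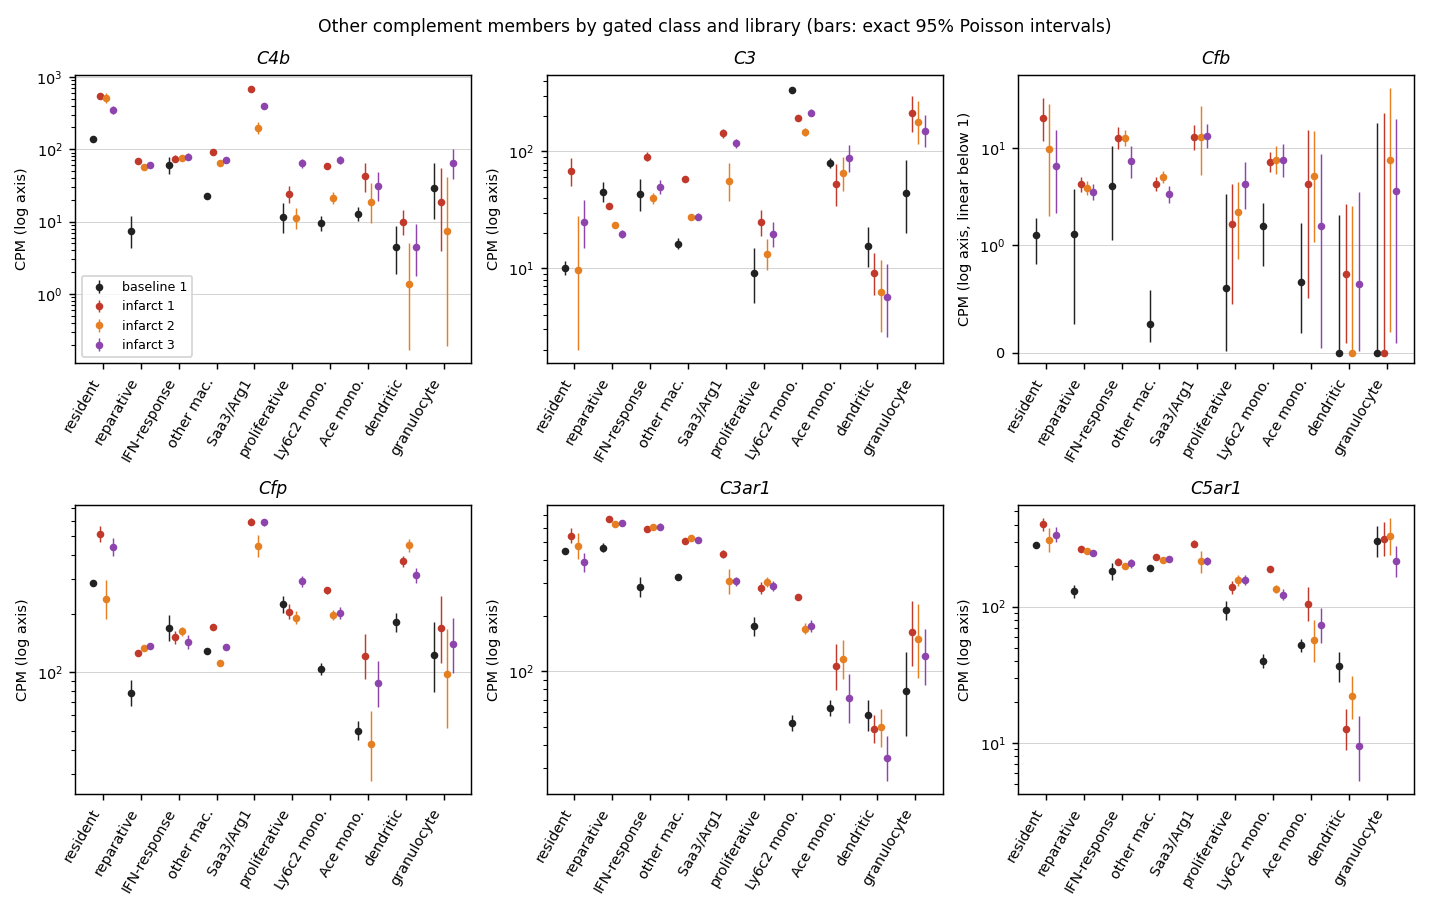
CPM of C4b, C3, Cfb, Cfp, C3ar1 and C5ar1 in 10 gated classes, log axes (linear below 1 CPM for Cfb), with 1 point per library and exact 95% Poisson bars that cover counting error only. C4b peaks in resident and Saa3/Arg1 cells, C3 in Ly6c2 monocyte and infarct granulocyte cells, Cfp in Saa3/Arg1 cells, and in infarcts both receptors are lower in the monocyte than in the macrophage classes and lowest in dendritic cells.

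The anaphylatoxin receptors followed the macrophage classes. In infarcts, C3ar1 was at 667, 627 and 632 CPM in reparative cells, 586, 605 and 607 CPM in interferon-response cells and 511, 529 and 511 CPM in other macrophage cells. It was at 431, 308 and 308 CPM in Saa3/Arg1, 253, 170.2 and 177 CPM in Ly6c2 monocyte and 49.0, 49.7 and 34.2 CPM in dendritic cells, below the reparative class in every library. Against all other cells the log2 ratio was 0.62 (SE 0.06, adjusted p = 2.26e-04) in reparative and 0.37 (SE 0.04, adjusted p = 3.43e-05) in interferon-response cells, and both calls held in all 13 alternatives. It was -1.39 (SE 0.12, adjusted p = 5.93e-05) in Ly6c2 monocyte, -2.46 (SE 0.13, adjusted p = 5.16e-25) in Ace monocyte and -3.53 (SE 0.10, adjusted p = 1.32e-22) in dendritic cells.

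C5ar1 was at 401, 309 and 338 CPM in resident cells, 264, 256 and 247 CPM in reparative cells and 289, 215 and 216 CPM in Saa3/Arg1 cells of the infarcts. Granulocyte cells, for which C5a is a well-known attractant, were at 314, 329.9 and 215 CPM and overlapped all 3. The log2 ratio against all other cells was 0.43 (SE 0.03, adjusted p = 1.21e-04) in reparative cells, a call that held in all 13 alternatives. It was 0.53 (SE 0.14, adjusted p = 0.00209) in resident cells, and leaving out infarct replicate 1 (0.41, adjusted p = 0.365) or 3 (0.54, adjusted p = 0.0536) ended that call, as did thinned cells (0.32, adjusted p = 0.509), Leiden clusters (0.25, adjusted p = 0.139) and the fit without the block (adjusted p = 0.0336). Dendritic cells had 12.7, 22.1 and 9.49 CPM and a ratio of -3.97 (SE 0.14, adjusted p = 4.00e-20).

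Between infarct and baseline, both receptors were over 2-fold higher in Ly6c2 monocyte cells, a mixed class as given above. There C3ar1 was at 52.5 CPM (95% interval 47.5 to 57.9) at baseline and 253, 170.2 and 177 CPM in infarcts (1.93), and C5ar1 at 40.0 CPM (95% interval 35.7 to 44.8) and 187, 135 and 123 CPM (1.89), with every infarct library above baseline. Interferon-response cells had C3ar1 at 287 CPM (95% interval 254 to 323) and 586, 605 and 607 CPM (1.06), and 2 of 9 members apart beside 3.08% higher and 9.73% lower, in all 12.8% of all genes. Reparative cells had C5ar1 at 129 CPM (95% interval 115 to 145) and 264, 256 and 247 CPM (0.98), just under 2-fold. Resident cells had C3ar1 at 449 CPM (95% interval 439.8 to 459), within the infarct values of 544, 480.0 and 390.1 CPM. At 2000 UMIs per cell, 11.3% of reparative cells had UMIs of both receptors at baseline and 26.1%, 25.8% and 26.3% in infarcts, and over all cells the share was 12.7% and 20.2%, 20.6% and 20.0%.

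**Figure D5:**
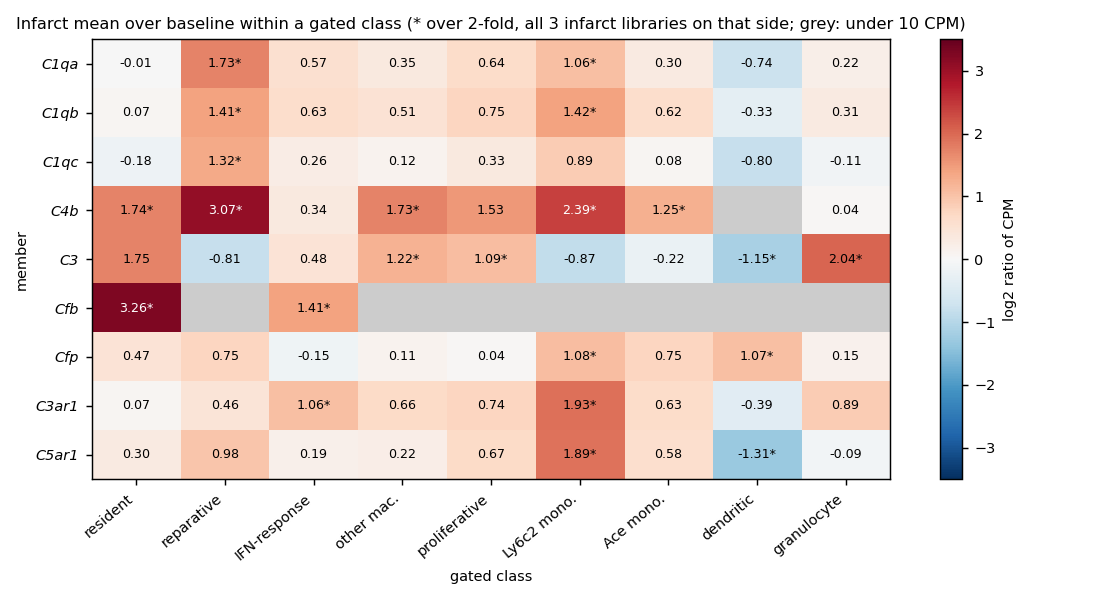
Log2 ratio of the infarct mean CPM (3 libraries) to the baseline CPM (1 library) for each member (rows) within 9 gated classes (columns), with grey for members under 10 CPM in both groups and an asterisk for over 2-fold with all 3 infarct libraries on one side. No test was run with 1 baseline library, and C4b in reparative cells and Cfb in resident cells have the highest ratios.

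The small or mixed classes gave the remaining members apart. In proliferative cells 1 of 8 was apart, C3 at 1.09 (background 3.09% higher and 7.87% lower, in all 11%). In granulocyte cells 1 of 8 was, C3 at 2.04 (background 22.1% higher and 13.6% lower, in all 35.7%). In B cells all 8 tested were higher (background 8.9% higher and 16.6% lower, in all 25.5%), with C1qa at 1.27 and C3ar1 at 1.81, in cells that carried macrophage markers as given above.

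To set the reparative class against each other class directly, 6 pairs were tested within infarcts. Against Ly6c2 monocyte cells, 5 members were higher and 3 lower in reparative cells (background 16.1% higher and 17.1% lower, in all 33.2%), with C1qa at 2.50 (SE 0.10, adjusted p = 9.39e-07) and C3 at -2.84 (SE 0.16, adjusted p = 5.49e-06). Against Ace monocyte cells, 7 were higher and 1 lower (background 10.5% higher and 11.7% lower, in all 22.3%), and against dendritic cells 8 higher and 1 lower (background 18.2% higher and 18.4% lower, in all 36.6%), the lower one being C3 and Cfp in turn. Against Saa3/Arg1 cells, 4 were higher, namely the C1q chains and C3ar1, and 4 were lower, namely C4b, C3, Cfb and Cfp (background 10.7% higher and 12.2% lower, in all 23%). C3 stood at -1.96 (SE 0.19, adjusted p = 2.09e-06) and Cfp at -1.89 (SE 0.14, adjusted p = 1.76e-07) in that pair. Against interferon-response cells, 1 was higher, C5ar1, and 7 were lower (background 6.73% higher and 12.2% lower, in all 18.9%), with C1qa at -0.20 (SE 0.04, adjusted p = 2.76e-04), C3 at -1.24 (SE 0.10, adjusted p = 1.22e-08) and C4b at -0.40 (SE 0.06, adjusted p = 7.79e-05). Without the block 3 members were called in this pair, the C1qa call ended without infarct replicate 3 (-0.13, adjusted p = 0.0191) and the C5ar1 call without replicate 1 (0.24, adjusted p = 0.0104). In CPM, C1qb and C1qc were higher in reparative cells in 1 of the 3 libraries, while the fitted ratios after TMM scaling were -0.13 and -0.15. Both calls ended under DESeq2's Wald test (adjusted p = 0.0752 and 0.0350), with thinned cells and without infarct replicate 1 or 3. The Cfp call ended with thinned cells, with Leiden clusters and without replicate 1, and the C4b call with thinned cells. Against resident cells, 1 was higher and 2 lower (background 4.22% higher and 4.46% lower, in all 8.67%): C3ar1 at 0.64 (SE 0.14, adjusted p = 0.00356), C4b as above and Cfp at -1.39 (SE 0.18, adjusted p = 1.80e-05). Leaving out infarct replicate 3 (0.52, adjusted p = 0.0967) or 1 (0.74, adjusted p = 0.0125) ended the C3ar1 call, and Leiden clusters ended that of Cfp (0.07, adjusted p = 0.810).

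A list of 40 further complement genes (proteases, lectin pathway, regulators, terminal components and other receptors) was read beside the members. Over all cells, 13 of them reached 10 CPM. By the 2-fold size rule, which put 2.35% of all genes higher and 7.21% lower in infarcts, none of these was higher and 3 were lower. Among them were Colec12, a collectin, at 64.9 CPM at baseline and 3.87 ± 1.02 CPM (SD, n = 3) in infarcts, and Vsig4, a macrophage receptor for C3 fragments, at 46.5 CPM at baseline and 3.60 ± 2.54 CPM (SD, n = 3) in infarcts. Within resident cells, Colec12 was also lower in infarcts, at 183 CPM at baseline and 38.6 ± 31.2 CPM (SD, n = 3) in infarcts. Against all other infarct cells, resident cells were higher in both: Vsig4 was at 5.29 (SE 0.22, adjusted p = 8.63e-119) and Colec12 at 2.97 (SE 0.35, adjusted p = 1.49e-15), with 66.3, 129 and 166 CPM of Vsig4 in replicates 1, 2 and 3. In that class 6 of 25 listed genes tested were higher and 2 lower. Fcna, ficolin A of the lectin pathway, was higher in both resident (4.14, SE 0.16, adjusted p = 5.48e-141) and Saa3/Arg1 cells (4.37, SE 0.23, adjusted p = 1.09e-11), where 7 of 25 were higher and 3 lower. Resident cells had 544, 113 and 608 CPM of Fcna in replicates 1, 2 and 3. The smallest of these p-values rest on the block. Without it, edgeR gave adjusted p = 0.00104 for Vsig4, 0.00717 for Colec12 and 0.00969 for Fcna in resident cells.

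Of the complement receptor integrins, Itgam, which pairs with Itgb2 to bind C3 fragments, was highest against the rest in Saa3/Arg1 cells, at 1257, 1803 and 1463 CPM and a log2 ratio of 2.53 (SE 0.18, adjusted p = 8.61e-10). Itgax, the alternative partner, was lower there (-2.59, SE 0.23, adjusted p = 2.02e-08) and in resident cells (-3.16, SE 0.35, adjusted p = 8.76e-18) and higher in Ace monocyte cells (1.37, SE 0.14, adjusted p = 6.25e-12), where 4 of 24 genes of the list were higher and 6 lower. In reparative cells 6 of 25 were higher and 8 lower, in Ly6c2 monocyte cells 3 of 24 and 9, and in dendritic cells 3 of 25 and 12. Dendritic cells had Clu, clusterin, a fluid-phase inhibitor of the terminal complex, at 16.0, 35.2 and 11.4 CPM and 3.45 (SE 0.35, adjusted p = 2.25e-09). The shares of all genes called in these classes are those given above.

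Genes with the pattern most like that of a member were found by Pearson's r of log2(CPM + 10) over 49 sums of a library and a class, in 14 classes, among the 6064 genes that averaged 20 CPM or more. The sums share libraries and classes, so r is a description with no test. C1qa was most like Adgre1 (r = 0.906), Camk1 (r = 0.898) and Fcrls (r = 0.898). C1qb was most like Apoe (r = 0.915), Adgre1 (r = 0.912) and Fcrls (r = 0.905), and C1qc most like Stab1 (r = 0.915), Camk1 (r = 0.900) and Gna12 (r = 0.899). Apoe is an apolipoprotein of macrophages and Stab1 a scavenger receptor, while Adgre1, which encodes F4/80, is also a macrophage marker of the classes. C3ar1 was most like Lgmn (r = 0.938), Adgre1 (r = 0.922) and Trem2 (r = 0.917), all of them class markers. C5ar1 was most like Fcgr3 (r = 0.863), Pla2g15 (r = 0.859) and Cd84 (r = 0.840). C3 was most like Hp (r = 0.809), Thbs1 (r = 0.791) and Derl1 (r = 0.761), where Hp is haptoglobin, an acute-phase protein, and Thbs1 thrombospondin. For C4b they were Trim8 (r = 0.820), Ninj1 (r = 0.812) and Twf1 (r = 0.811), for Cfp Cysltr1 (r = 0.744), Rnf141 (r = 0.734) and Actb (r = 0.730), and for Cfb Fam20c (r = 0.680), Ecm1 (r = 0.658) and Capns1 (r = 0.650).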

How the data were processed

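Cells were profiled with the 10x Genomics 3′ v3.1 kit. The deposited counts are UMIs per gene and cell, made by the authors with Cell Ranger (3.1.0 in the file headers and the study's methods, 3.0.1 in the submitters' processing notes) on mm10; replicates were not pooled. Here cells with 500 to 40000 UMIs and over 200 genes, and genes in at least 3 cells, were kept. Mitochondrial genes were left out of totals and tests. Cells were put in classes by detected markers, with ties and cells of no class left out of the classes. Counts were summed per library and class (at least 20 cells) and tested with edgeR 4.0.16 (TMM, filterByExpr, quasi-likelihood test, Benjamini-Hochberg adjusted p under 0.01) in R 4.3.3, within the 3 infarct libraries, each 1 heart. The library was a block because both sums of a comparison come from the same heart. The baseline, 1 library, was entered in no test: a gene counted as apart where the infarct mean CPM was over 2-fold from baseline, all 3 infarct libraries lay on that side and either group reached 10 CPM. Shares of cells with a UMI used cells thinned to 2000 UMIs. Likely doublets were kept. Scrublet's automatic threshold marked 1.97% of baseline cells and 0%, 0% and 0.00988% of infarct cells, so it had not worked, and an alternative removed the 8.1% to 8.63% of cells with the highest scores. Other alternatives were DESeq2 1.42.0, another scaling, no block, a stricter gate, Leiden clusters (leidenalg 0.10.2), thinned cells and leaving out each infarct library. On simulated counts with 200 changed genes, the test recovered 100% for reparative cells (13307 genes) and 85% for dendritic cells (13252 genes), with 8 and 9 unchanged genes called. All changed genes were set 2-fold apart and taken above a CPM floor, and no difference between libraries was simulated. Recovery of smaller ratios or of rare genes, and the effect of the block, were thus not covered. All 9 members were described, and of the pathway list up to 6 genes per comparison with the largest ratios could be named. Values of 1 gene of that list are not reported here. Members, lists and tests were chosen with earlier results of these data known. Python 3.11.15, scanpy 1.11.5 and numpy 2.4.6 were used.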

Additional observations from a re-analysis of the deposited data

Results flagged for a closer look

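In 2 members, C3 and C5ar1, classes lay over 2-fold from baseline in opposite directions, with all 3 infarct libraries on the same side in each class. The difference between the classes was not tested. For C3 the log2 ratio of infarct to baseline was -1.15 in dendritic cells, and 1.22 in other macrophage, 1.09 in proliferative, 2.04 in granulocyte and 3.31 in B cells. For C5ar1 it was -1.31 in dendritic cells, and 1.89 in Ly6c2 monocyte and 1.23 in B cells. The dendritic values were low, with C3 at 15.5 CPM at baseline and 9.08, 6.21 and 5.70 CPM in infarct replicates 1, 2 and 3, and they turned with the grouping of cells: under the stricter gate the dendritic ratio was 1.12 for C3 and 0.39 for C5ar1, and with Leiden clusters 0.90 and 0.57. B cells of the infarcts carried a median of 4 of 7 macrophage markers, and the part of macrophage RNA in their values was not tested. The granulocyte class stood on 71 baseline cells.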

How the results depend on the processing

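The 112 tests of a member in a class or pair that were called had 1359 alternative values. Of these, 1251 kept their direction and call, 105 lost the call and 3 changed direction. Tests that were not called were left out, so calls gained under an alternative are not counted here. The 30 infarct over baseline ratios that passed the 2-fold rule had 308 alternative values. In 251 of these the infarct mean CPM moved by no more than its SD over the infarct libraries, and the rule still held. In 53 the mean moved by more or the rule no longer held, and 4 changed direction. A shift of the baseline value that left the rule in place was not counted as a move. Of the counts of members called, 281 of 323 alternatives stayed within 1.5 times. The fit without a replicate block moved the most: the number called was 0 in place of 3 in B cells, 2 in place of 6 in interferon-response, 5 in place of 8 in Ly6c2 monocyte, 0 in place of 5 in other macrophage, 3 in place of 7 in proliferative, 2 in place of 6 in reparative, 1 in place of 3 in resident and 4 in place of 8 in Saa3/Arg1 cells, and 3 in place of 8 for reparative against interferon-response cells. In B cells, edgeR without the block gave 1 member at an unadjusted p under 0.05, DESeq2 called 0 with 4 at an unadjusted p under 0.05, and edgeR without infarct replicate 1 called 0 with 4. In other macrophage cells edgeR without the block gave 4 at an unadjusted p under 0.05. Leaving out 1 infarct library gave 0 to 4 called members in B cells, 5 to 7 in interferon-response, 3 to 8 in reparative and 4 to 8 in Saa3/Arg1 cells, and 4 to 8 for reparative against interferon-response cells. Thinned cells gave 4 for that pair, and Leiden clusters gave 5 for resident cells. With Leiden clusters, C1qa in reparative cells against the rest was at -0.053 (edgeR adjusted p = 0.615), Cfp in resident cells at -0.48 (edgeR adjusted p = 0.00486) and Cfp of reparative against resident cells at 0.065 (edgeR adjusted p = 0.810). For infarct against baseline, TMM scaling put 1 member apart over all cells in place of 0. Members apart in Ace monocyte cells were 7 with doublets removed, 4 with Leiden clusters (in the other direction) and 0 to 2 without 1 library, in place of 1. In B cells they were 5 with Leiden clusters in place of 8. In dendritic cells they were 5 by the mean of each cell's CPM, 6 with doublets removed and 0 with Leiden clusters in place of 3. In granulocyte cells they were 2 with thinned cells, 2 with doublets removed and 1 to 2 without 1 library in place of 1. In interferon-response cells they were 5 with Leiden clusters and 1 to 2 without 1 library in place of 2, and in other macrophage cells 1 under the stricter gate and 1 to 2 without 1 library in place of 2. In proliferative cells they were 2 under TMM scaling, by averaging CPM over cells and with thinned cells, 0 with doublets removed and under the stricter gate, and 0 to 2 without 1 library, in place of 1. In resident cells they were 1 with Leiden clusters and 1 to 3 without 1 library in place of 2. C3 in dendritic cells, infarct over baseline, was at 1.12 under the stricter gate and 0.90 with Leiden clusters, and C5ar1 at 0.39 and 0.57. At least 50% of reparative cells had a UMI of 4 members at 2000 UMIs per cell, of 3 at 1000, 5 at 4000 and 6 without thinning. The causes of these differences were not tested. Shares of all genes under the alternatives are not given, so these counts of members cannot be set against them. Leiden clusters gave no value for Ly6c2 monocyte, Saa3/Arg1 and other macrophage cells, nor the stricter gate for B, granulocyte and resident cells. With 1 baseline library, its intervals cover counting error only. Low counts limit Cfb in every class and C4b in monocyte and dendritic cells.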
